A study of Mus musculus with 5 samples.

Results

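The cytosolic ribosomal protein genes were examined for occupancy by Pcgf6 in mouse embryonic stem cells. All protein-coding genes whose symbol begins with Rpl or Rps and a digit were taken, together with Rpsa and Rplp0 to Rplp2, and the Rps6k kinases and symbols marked as pseudogenes were left out. This gave 85 genes of 22359 protein-coding genes in the mm9 annotation. They comprised 45 genes of the large subunit, 31 of the small subunit and 8 paralogs of these (Rpl3l, Rpl7l1, Rpl10l, Rpl22l1, Rpl36al, Rpl39l, Rps4y2 and Rps27l). The last, Rps19bp1, met the rule by its spelling but encodes a protein that binds Rps19 and is not part of the ribosome. The rule used gene symbols alone.

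Ribosomal proteins assemble with ribosomal RNA into the large and small subunits that translate messenger RNA in the cytoplasm. Their genes are among the most actively transcribed in proliferating cells, sit in CpG-rich promoters, start within a pyrimidine tract and often carry small nucleolar RNAs in their introns. They also left many processed pseudogenes in the mouse genome. Pcgf6 is a Polycomb RING finger protein of a variant Polycomb repressive complex 1, whose partners include the E-box binding pair Mga and Max and the factor E2f6, and which is best known at promoters of germ cell genes. The comparison asks whether Pcgf6 ChIP exceeded input at these housekeeping promoters, and whether the antibodies differed there.

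The series held 5 ChIP-seq coverage files from CCE cells, a line of mouse embryonic stem cells kept at low passage in serum with LIF, with no genetic change given in the labels. Chromatin had been cross-linked with DSG, a protein-protein cross-linker, and then with paraformaldehyde. Pcgf6 was precipitated with an antibody from Santa Cruz (2 files) or from Abcam (2 files), and 1 input file held chromatin without precipitation. No treatment or time point separated the groups, and no library from cells lacking Pcgf6 was analysed here. The libraries hold DNA, so the identity of the cells could not be checked by marker expression.

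Each file gave the depth of reads extended to 300 bp, from which the fragments were recovered. The input held 22805790 fragments, the Santa Cruz files 2289619 and 2299505 and the Abcam files 2761130 and 2849882. The replicates of an antibody were not separate measurements. Of the fragments of replicate 1, 87.84% with Santa Cruz and 88.01% with Abcam were also found in replicate 2, shifted by 1 or 15 positions. The replicates were therefore joined into 1 library per antibody (2568934 and 3168262 fragments), so that no spread between replicates could be given. Fragments of a file that began at the same position were counted once, which left 22304729 in input. Intervals and p-values below cover counting error between libraries only.

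The upstream sequences of a few members are shown first, and they differ in the motif matches they hold. Each sequence holds the 250 bases upstream of the TSS, 5′ to 3′ on the strand of the gene, from the NCBIM37 (mm9) genome, and none of them overlapped an annotated exon. Capitals mark matches on either strand to the E-box CACGTG, the E2F motif GCGGGAA, the GC-rich motif CGNGGGCG and the ETS motif CCGGAAG. Rpl14, Rpl30 and Rplp2 hold an E-box, Rps20 has an E2F and a GC-rich match, and Rpl10l, the member with the highest Abcam ratio, has an E2F match. Rpl10, the X-linked gene from which Rpl10l derives, is shown beside it, followed by Rpl37a and Rps4x, the members of at least 20 input fragments with the highest ratio for Abcam and Santa Cruz. The windows were Rpl14 chr9:120480382-120480631 (plus strand), Rpl30 chr15:34373396-34373645 (minus strand), Rplp2 chr7:148633019-148633268 (plus strand), Rps20 chr4:3762813-3763062 (minus strand), Rpl10l chr12:67385389-67385638 (minus strand), Rpl10 chrX:71515901-71516150 (plus strand), Rpl37a chr1:72757584-72757833 (plus strand) and Rps4x chrX:99384734-99384983 (minus strand).
Rpl14: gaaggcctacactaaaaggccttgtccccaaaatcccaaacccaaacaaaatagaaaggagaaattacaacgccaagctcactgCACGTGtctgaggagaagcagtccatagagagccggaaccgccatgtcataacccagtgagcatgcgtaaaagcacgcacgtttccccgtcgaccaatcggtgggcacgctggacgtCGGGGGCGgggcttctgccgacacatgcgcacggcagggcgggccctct
Rpl30: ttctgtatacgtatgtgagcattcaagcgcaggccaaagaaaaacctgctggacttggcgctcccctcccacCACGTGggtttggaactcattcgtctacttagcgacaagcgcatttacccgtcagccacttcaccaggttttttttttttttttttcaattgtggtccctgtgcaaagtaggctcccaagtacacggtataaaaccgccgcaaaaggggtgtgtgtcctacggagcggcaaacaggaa
Rplp2: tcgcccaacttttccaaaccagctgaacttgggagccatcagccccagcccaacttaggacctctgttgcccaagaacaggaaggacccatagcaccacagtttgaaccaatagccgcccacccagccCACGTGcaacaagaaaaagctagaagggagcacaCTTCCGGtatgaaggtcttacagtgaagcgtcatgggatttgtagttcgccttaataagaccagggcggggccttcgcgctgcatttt
Rps20: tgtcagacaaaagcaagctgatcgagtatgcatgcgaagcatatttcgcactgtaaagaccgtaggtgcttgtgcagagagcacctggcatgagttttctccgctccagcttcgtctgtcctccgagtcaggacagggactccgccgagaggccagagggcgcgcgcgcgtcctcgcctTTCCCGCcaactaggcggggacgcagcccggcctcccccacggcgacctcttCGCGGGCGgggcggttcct
Rpl10l: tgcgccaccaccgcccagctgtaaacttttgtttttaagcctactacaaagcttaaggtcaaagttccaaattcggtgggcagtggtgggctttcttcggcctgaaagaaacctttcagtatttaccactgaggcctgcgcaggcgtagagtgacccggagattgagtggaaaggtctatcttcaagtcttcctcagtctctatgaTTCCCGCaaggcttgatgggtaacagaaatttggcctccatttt
Rpl10: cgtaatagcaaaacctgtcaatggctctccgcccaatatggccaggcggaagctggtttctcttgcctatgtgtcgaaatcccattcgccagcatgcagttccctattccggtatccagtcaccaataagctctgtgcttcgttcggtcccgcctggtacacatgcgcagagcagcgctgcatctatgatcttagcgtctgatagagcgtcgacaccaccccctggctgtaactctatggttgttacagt
Rpl37a: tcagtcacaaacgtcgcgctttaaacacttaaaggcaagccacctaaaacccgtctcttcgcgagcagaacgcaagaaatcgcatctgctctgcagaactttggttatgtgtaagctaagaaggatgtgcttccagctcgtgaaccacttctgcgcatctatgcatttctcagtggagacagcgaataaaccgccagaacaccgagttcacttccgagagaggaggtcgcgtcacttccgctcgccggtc
Rps4x: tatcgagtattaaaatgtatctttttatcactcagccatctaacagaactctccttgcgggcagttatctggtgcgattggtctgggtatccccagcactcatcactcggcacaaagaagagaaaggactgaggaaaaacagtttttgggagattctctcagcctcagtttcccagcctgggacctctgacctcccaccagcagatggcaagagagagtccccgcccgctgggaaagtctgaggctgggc

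No ribosomal protein promoter was called above input with either antibody, where 0.640% of all promoters were called with Santa Cruz and 1.10% with Abcam. With shares this small, a count of 0 among 85 genes does not set the members apart from all promoters. The 95% interval lay above 1 for Rps4x with Santa Cruz and for Rpl10l and Rpl37a with Abcam. Rpl37a was called with Abcam when all fragments were counted as deposited. That setting counts the fragments shared by the replicates repeatedly, which makes p-values too small. In it 1.18% of the members and 2.78% of all promoters were called above input with Abcam. Within 2 kb of the TSS the 85 members held 6505 input fragments, 634 Santa Cruz fragments and 822 Abcam fragments. Scaled by the library totals, the summed ChIP/input ratio was 0.846 with Santa Cruz (95% interval 0.779 to 0.918) and 0.890 with Abcam (0.826 to 0.957). Over all 22359 promoters the same ratios were 0.940 and 0.990. The median ratio of the members was 0.844 with Santa Cruz and 0.880 with Abcam, beside 0.898 and 0.943 over all promoters.

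In the exact binomial test with Benjamini-Hochberg adjustment over all promoters, 0 of 85 members passed the threshold of 0.05 above input with Santa Cruz, where 0.640% of all promoters passed. With Abcam the count was also 0 of 85, beside 1.10% of all promoters. At an unadjusted p under 0.05, 1 member lay above input with Santa Cruz and 3 with Abcam, which is 1.18% and 3.53% of the members and compares with 5.06% and 6.32% of all promoters. The smallest adjusted p of a member was 0.725 with Santa Cruz and 0.33 with Abcam by this exact test. As a reference with enrichment in these libraries, chosen after its values were seen, the germ cell helicase gene Ddx4 had a scaled depth (depth within 2 kb of the TSS, per 1000000 of the file's total depth) of 1.4 in input, 14 and 14.4 in the Santa Cruz files and 14.5 and 15.1 in the Abcam files. Its ratio was 9.23 with Santa Cruz (5.52 to 15.4) and 11 with Abcam (6.92 to 17.7).

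**Figure D1:**
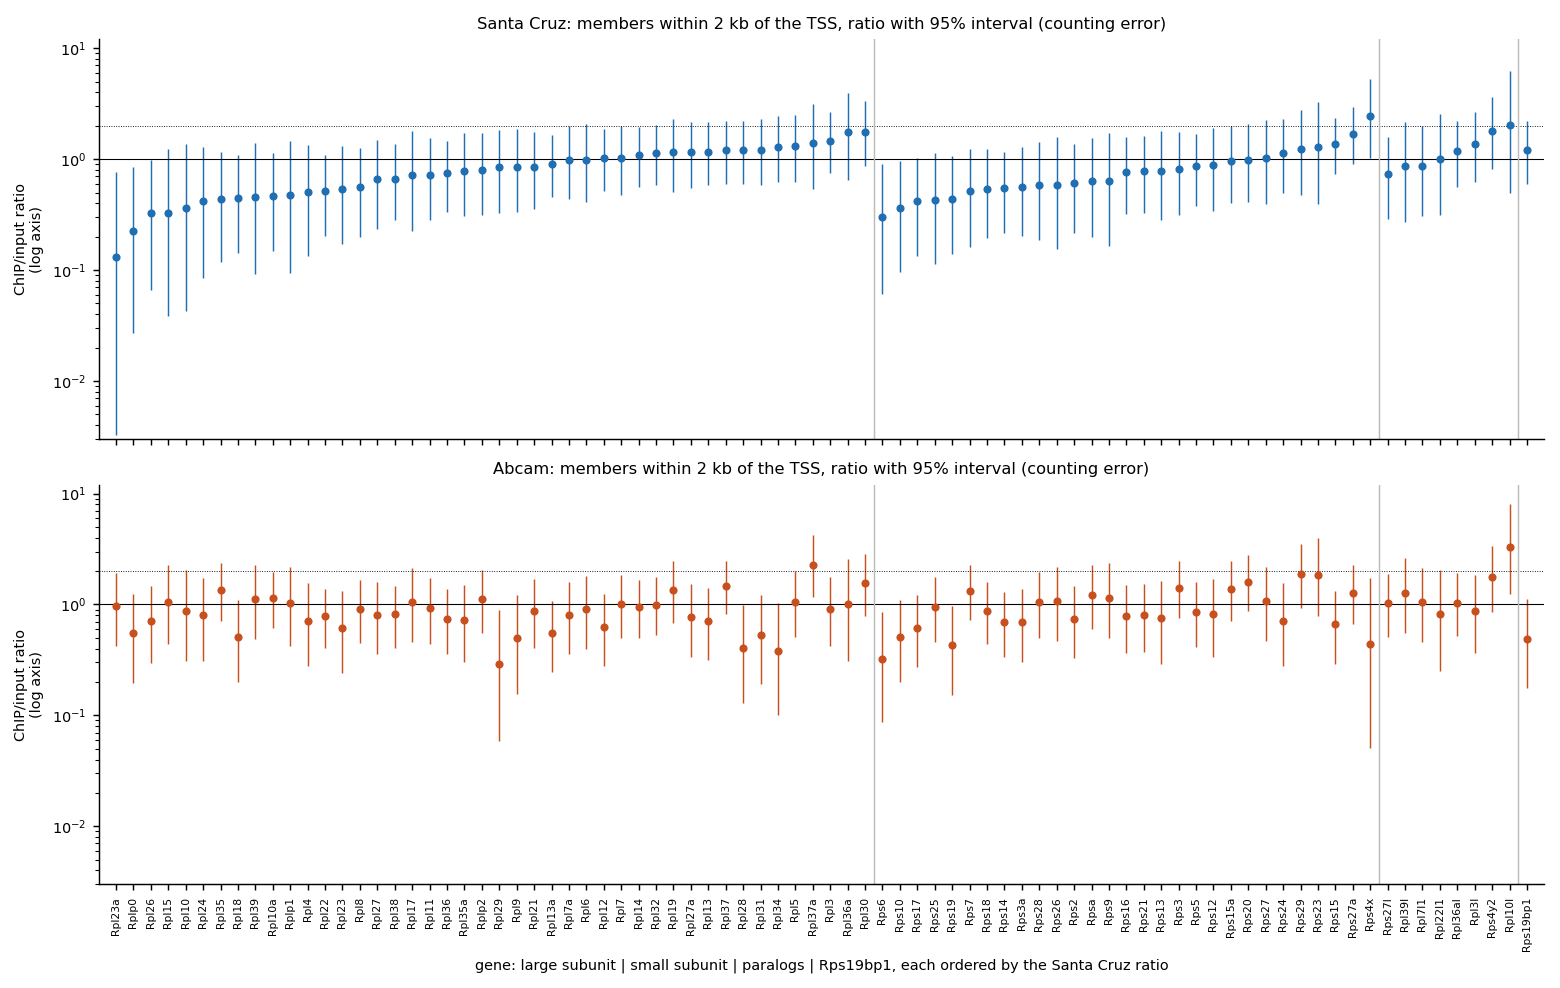
ChIP/input ratio of 82 members within 2 kb of the TSS (log axis) for Santa Cruz and Abcam, with 95% counting intervals; members run along the horizontal axis by subunit. The points scatter around and mostly below the solid line at 1, and the intervals of 50 of them with Santa Cruz and 53 with Abcam end below the dotted line at 2.

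The depth set how far this result reaches. The median member had 79 input fragments (range 17 to 117), 7 Santa Cruz fragments (1 to 16) and 9 Abcam fragments (2 to 18). At these input counts the ratio a member needed to pass the test had a median of 2.57 with Santa Cruz (2.23 to 5.11) and 2.32 with Abcam (2.05 to 4.56). Enrichment below a member's own needed ratio was not detectable at this depth. The upper end of the 95% interval lay under 2 in 53 members with Santa Cruz and 56 with Abcam, and under 3 in 78 and 80 members. The highest upper end belonged to Rpl10l with both antibodies.

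Below input, 0 of 85 members were called with Santa Cruz and with Abcam, and 0% of all promoters were called with either antibody. The depth could hardly give such a call for a member on its own. With 0 ChIP fragments, a member at the median input would have had p = 0.000182 with Santa Cruz and 2.77e-05 with Abcam in the exact binomial test, and a first call needed 2.24e-06. Complete absence of fragments could have reached this in 0 members with Santa Cruz and 12 with Abcam. The count therefore says little about depletion of a member on its own. The limit of the adjustment rises when more promoters pass together, and depletion of many members at once was not examined in this way. At an unadjusted p under 0.05, 9 members lay below input with each antibody, which is 10.6% of the members and compares with 6.27% of all promoters with Santa Cruz and 5.79% with Abcam. The ratio was under 1 in 55 members with Santa Cruz (64.7%, beside 59.1% of all promoters with an input fragment) and in 52 with Abcam (61.2%, beside 55.1%).

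By size alone, a ratio of 2 or more was found in 2 members with Santa Cruz (Rpl10l and Rps4x), or 2.35%, where 7.05% of all promoters with an input fragment had one. With Abcam it was found in 2 members (Rpl10l and Rpl37a), or 2.35%, beside 6.71% of all promoters. A ratio of 0.5 or less was found in 16 members with Santa Cruz (18.8%, beside 14.4% of all promoters) and in 9 with Abcam (10.6%, beside 10.7%). Input counts ranged from 17 to 117 for the members and from 0 to 1204 for all promoters, and the part of this range in the shares was not tested.

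**Figure D2:**
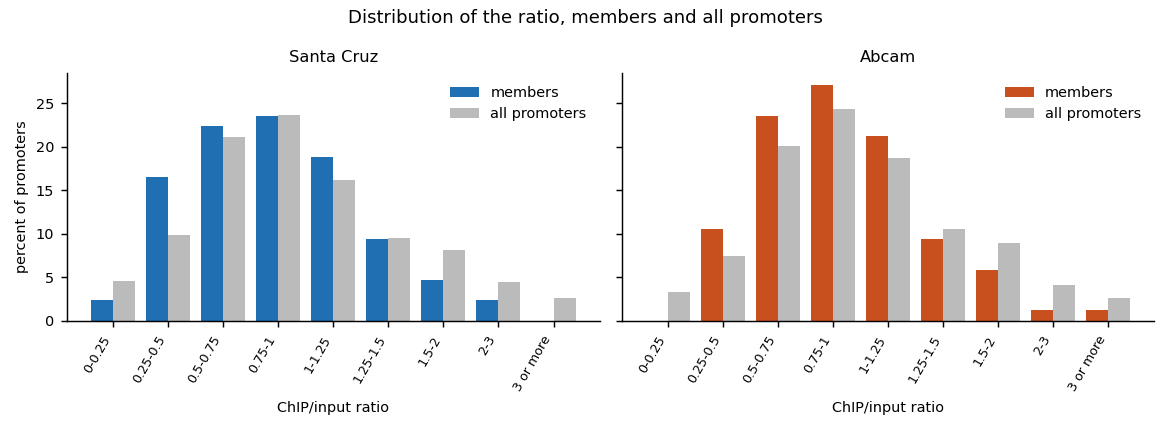
Share of promoters (percent) in each range of the ChIP/input ratio, for the members (coloured) and for all promoters with an input fragment (grey), with Santa Cruz left and Abcam right. With Abcam 1.18% of the members and 2.59% of all promoters had a ratio of 3 or more, and with Santa Cruz 0% and 2.63%.

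Among proteins of the large subunit, the 45 genes had a summed ratio of 0.834 with Santa Cruz (0.745 to 0.933) and 0.855 with Abcam (0.772 to 0.945). The highest of them with Abcam was Rpl37a, which encodes a zinc finger protein of the large subunit. Its scaled depth was 1.89 in input, 2.79 and 2.32 in the Santa Cruz files and 4.23 and 4.44 in the Abcam files. The Abcam depth stood above input and above the Santa Cruz depth. Because the files of an antibody share most fragments, their closeness here and below adds no support. In fragments this was 43 in input, 7 with Santa Cruz and 14 with Abcam, a ratio of 1.41 (0.536 to 3.17) and 2.29 (1.16 to 4.27). The Abcam value had an unadjusted one-sided p of 0.00882 and an adjusted p of 0.33 in the exact binomial test.

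Rpl30, a large subunit protein whose promoter holds the E-box shown above, had a scaled depth of 2.71 in input, 4.15 and 5.02 in the Santa Cruz files and 4.35 and 4.21 in the Abcam files. Both antibodies were above input. The ratios from fragments were 1.77 with Santa Cruz (0.864 to 3.32) and 1.55 with Abcam (0.78 to 2.86), and neither interval excluded 1. Rpl14 had a scaled depth of 4.82 in input, 3.49 and 5.34 in the Santa Cruz files and 4.95 and 4.56 in the Abcam files, so that ChIP and input overlapped.

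At the low end, Rpl23a, which lies at the exit of the peptide tunnel, had a scaled depth of 2.9 in input, 0 and 0.435 in the Santa Cruz files and 3.19 and 2.75 in the Abcam files. Its 66 input fragments stood beside 1 Santa Cruz fragment and 9 Abcam fragments. With Abcam the ratio was 0.96 (0.421 to 1.94), so that the low value was seen with Santa Cruz and not with Abcam. Rpl29 showed the opposite order, with 3.21 in input, 3.06 and 3.04 in the Santa Cruz files and 1.09 and 1.05 in the Abcam files. The Abcam ratio of Rpl29 was 0.293 (0.0591 to 0.892), with an adjusted p of 0.708 below input in the exact binomial test. Also among the 5 lowest were Rpl26 and Rpl15 with Santa Cruz (0.326 and 0.328) and Rpl34 and Rpl28 with Abcam (0.381 and 0.405).

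The proteins of the ribosomal stalk, which recruits translation factors, are encoded by Rplp0, Rplp1 and Rplp2. Rplp0 had a scaled depth of 3.64 in input, 0.437 and 0.87 in the Santa Cruz files and 2.3 and 2.25 in the Abcam files, below input with both antibodies. Its ratio was 0.226 with Santa Cruz (0.0268 to 0.843) and 0.549 with Abcam (0.195 to 1.25). Rplp1 had ratios of 0.474 and 1.02 and Rplp2, which holds an E-box, of 0.8 and 1.11, with intervals that included 1.

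Among proteins of the small subunit, the 31 genes had a summed ratio of 0.798 with Santa Cruz (0.693 to 0.916) and 0.901 with Abcam (0.798 to 1.01). Rps4x, the X-linked gene of a small subunit protein, had a scaled depth of 1.39 in input, 3.06 and 3.3 in the Santa Cruz files and 0.595 and 0.575 in the Abcam files. Santa Cruz was above input and Abcam below it. From 32 input, 9 Santa Cruz and 2 Abcam fragments the ratios were 2.44 (1.03 to 5.23) and 0.44 (0.0511 to 1.72). The difference between the antibodies had an unadjusted two-sided p of 0.0285 and an adjusted p of 1 in the exact binomial test.

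Rps29, a zinc-binding protein, had 2.12 in input, 3.01 and 3 in the Santa Cruz files and 4.44 and 3.95 in the Abcam files. Its Abcam ratio was 1.87 (0.93 to 3.5). Rps23, which lies at the decoding centre, had a scaled depth of 1.47 in input, 1.75 and 1.74 in the Santa Cruz files and 2.17 and 3.16 in the Abcam files. Its Abcam ratio was 1.86 (0.786 to 3.97). Rps20 had an Abcam ratio of 1.61 (0.872 to 2.8) and a Santa Cruz ratio of 0.992 (0.412 to 2.06), and Rps27a, whose product is a fusion of ubiquitin and a ribosomal protein, had 1.28 (0.669 to 2.28) and 1.69 (0.903 to 2.97). These intervals all included 1.

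Rps6, the small subunit protein phosphorylated by the Rps6k kinases, was low with both antibodies. Its scaled depth was 3.83 in input, 1.31 and 1.3 in the Santa Cruz files and 1.09 and 1.4 in the Abcam files, below input in each. The ratios were 0.299 (0.0606 to 0.904) and 0.324 (0.0863 to 0.859), with adjusted p below input of 0.669 and 0.659 in the exact binomial test. Rpsa, also known as the laminin receptor precursor, had ratios of 0.629 (0.198 to 1.54) and 1.22 (0.604 to 2.28).

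**Figure D3:**
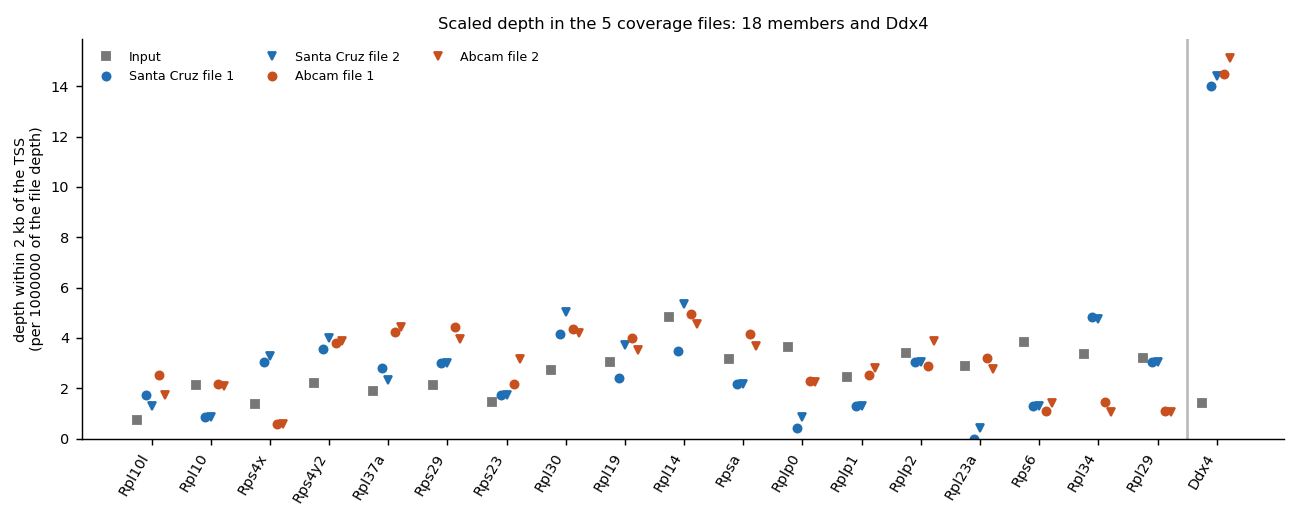
Depth within 2 kb of the TSS, per 1000000 of each file's depth, in the 5 files for 18 members and for Ddx4 (far right). The Ddx4 ChIP points lie between 14 and 15.1 over an input of 1.4, whereas the members' ChIP points lie between 0 and 5.34, with Rpl10l having the lowest input (0.761).

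The 8 paralogs, several of which are expressed mainly in testis or muscle, had a summed ratio of 1.13 with Santa Cruz (0.844 to 1.49) and 1.18 with Abcam (0.914 to 1.51). The 76 ribosomal proteins without them had 0.82 (0.751 to 0.894) and 0.873 (0.808 to 0.943). The intervals of the paralogs overlapped those of the other members. With either antibody 0 of the 8 were called, where 0.640% of all promoters were called above input with Santa Cruz and 1.10% with Abcam. At such shares a count of 0 among 8 genes says little. Their input was lower, with a median of 55 fragments.

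Rpl10l, an intronless copy of the X-linked Rpl10 that is needed in male germ cells, had a scaled depth of 0.761 in input, 1.75 and 1.3 in the Santa Cruz files and 2.54 and 1.75 in the Abcam files. Both antibodies were above input. With 17 input fragments, the fewest of any member, 4 Santa Cruz and 8 Abcam fragments gave ratios of 2.04 (0.5 to 6.26) and 3.31 (1.24 to 8.1), and the adjusted p with Abcam was 0.33 in the exact binomial test. Rpl10 itself had 2.15 in input, 0.874 and 0.87 in the Santa Cruz files and 2.17 and 2.11 in the Abcam files. Its ratios were 0.362 (0.0426 to 1.38) and 0.88 (0.308 to 2.06).

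Rps4y2, which lies on chromosome 6 and is also intronless, had a scaled depth of 2.2 in input, 3.57 and 4 in the Santa Cruz files and 3.81 and 3.88 in the Abcam files. Its ratios were 1.81 (0.816 to 3.62) and 1.76 (0.851 to 3.36). Rpl36al, the other intronless member of 3, had 1.18 (0.566 to 2.22) and 1.04 (0.518 to 1.92), beside 1.74 and 1.01 for Rpl36a. Of the paralogs with introns, Rpl3l of striated muscle had ratios of 1.36 and 0.88 beside 1.47 and 0.914 for Rpl3. Rpl7l1 had 0.868 and 1.06 beside 1.03 and 1.01 for Rpl7, and Rpl22l1 had 1.01 and 0.819 beside 0.519 and 0.782 for Rpl22. Rpl39l had 0.868 and 1.27 beside 0.457 and 1.11 for Rpl39, and Rps27l had 0.732 and 1.02 beside 1.03 and 1.07 for Rps27, in each case Santa Cruz before Abcam. Rps19bp1 had ratios of 1.21 (0.603 to 2.23) and 0.491 (0.175 to 1.11).

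The 4 X-linked members (Rpl10, Rpl36a, Rpl39 and Rps4x) had 32 to 57 input fragments, and the median of the 81 autosomal members was 79. Their scaled input depth had a median of 1.84, beside 3.61 for the autosomal members. Their summed ratios were 1.06 with Santa Cruz (0.64 to 1.67) and 0.9 with Abcam (0.55 to 1.41), and both intervals included 1.

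The antibodies were compared with each other directly. The summed Abcam/Santa Cruz ratio of the members was 1.05 (0.947 to 1.17), the same value as over all promoters, 1.05. In the two-sided exact binomial test 0 of 85 members differed at an adjusted p of 0.05, where 0.00894% of all promoters did. At an unadjusted p under 0.05, 3 members (Rpl23a, toward Abcam, and Rpl34 and Rps4x, toward Santa Cruz) were found, or 3.53%, beside 2.46% of all promoters, and each had an adjusted p of 1. Rpl10l was among the highest and Rps6 among the lowest values with both antibodies. The 2 ratios of a gene share the same input count, so that they are not independent of each other. Rpl10l had the fewest input fragments of any member, 17.

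The shape of the signal around the TSS was then examined. In input, the members had 1.83 times as many fragments per base in the central 500 bp on each side of the TSS as at 1.5 to 2 kb (1.71 to 1.96), and all promoters had 1.71 times as many. The same ratio was 1.51 with Santa Cruz (1.21 to 1.89) and 2.07 with Abcam (1.7 to 2.54) at the members, beside 1.63 and 1.78 over all promoters. Relative to input, the central 500 bp of the members stood at 0.73 with Santa Cruz (0.63 to 0.843) and at 0.891 with Abcam (0.789 to 1). Over all promoters these values were 0.905 and 1. At 500 to 1500 bp upstream the members had ratios to input of 1 (0.837 to 1.2) and 0.988 (0.837 to 1.16), and at 1.5 to 2 kb they stood at 0.885 (0.736 to 1.06) and 0.786 (0.659 to 0.933), so that with Abcam the flanks were no higher than the centre. The Abcam/Santa Cruz ratio in the centre was 1.22 at the members (1.02 to 1.46) and 1.11 over all promoters (1.09 to 1.12), and it was 0.889 (0.699 to 1.13) and 1.01 in the flanks.

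**Figure D4:**
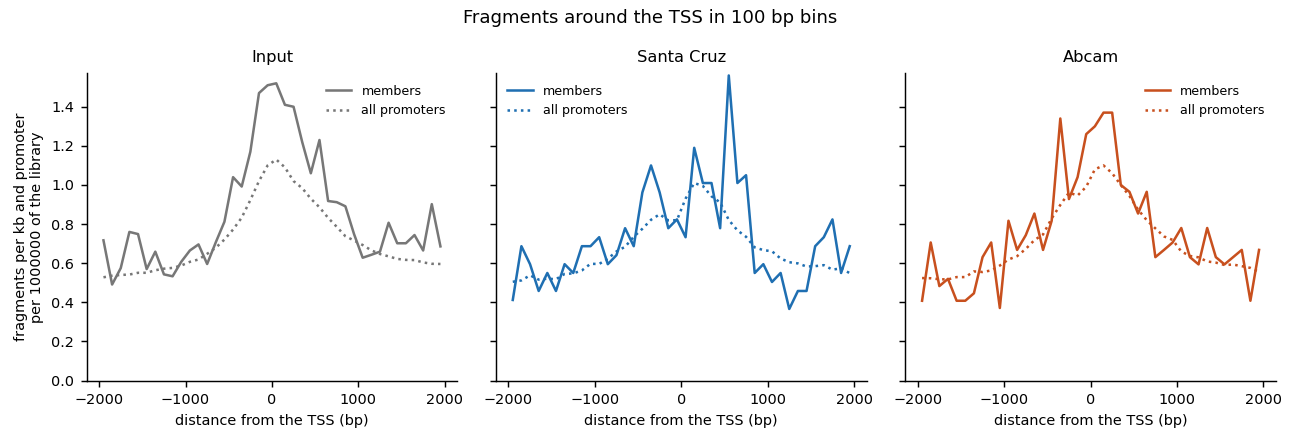
Fragments per kb and promoter, per 1000000 fragments of the library, in 100 bp bins against distance from the TSS, for the members (solid) and all promoters (dotted) in the input, Santa Cruz and Abcam libraries. The input of the members peaks at the TSS above that of all promoters, and the ChIP profiles of the members rest on few fragments per bin.

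Peaks were called with a Poisson test against the local input, which gave 628 peaks with Santa Cruz and 950 with Abcam at a p cutoff of 1e-05. Of the 85 members, 0 had a Santa Cruz peak within 2 kb of the TSS, where 1.41% of all promoters had one, and 0 had an Abcam peak, where 2.48% did. Within 10 kb the counts were again 0 with Santa Cruz (1.98% of all promoters) and 0 with Abcam (3.36%). Given these shares, counts of 0 among 85 genes do not by themselves set the members apart from all promoters. At the looser cutoff of 1e-04, Rpl14 had a peak within 2 kb with Santa Cruz and Rpl37a with Abcam, beside 2.21% and 3.88% of all promoters.

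The upstream sequences shared features that the choice of genes did not use. The median observed to expected CpG ratio in the 250 bases upstream was 0.812 for the members and 0.503 for all promoters, at a similar GC content (55.2% and 54.4%). Promoters with a CpG ratio of 0.6 or more held 114 of the promoters called with Santa Cruz and 196 of those called with Abcam, of 9502. The 63 members in this class had a summed ratio of 0.847 with Santa Cruz (0.769 to 0.931) and 0.896 with Abcam (0.823 to 0.974), and the whole class had 0.954 (0.947 to 0.961) and 1.02 (1.01 to 1.03). The intervals of the members and of the class, which leave out the spread between genes, did not overlap with either antibody. The medians were 0.858 and 0.88 for the members of this class, beside 0.894 and 0.949 for the class, and have no interval. Over all 85 members the quartiles were 0.548 and 1.15 with Santa Cruz and 0.712 and 1.07 with Abcam. A difference beyond this spread between genes was not tested. The 22 members with a lower CpG ratio had 0.844 (0.712 to 0.995) and 0.871 (0.748 to 1.01), which overlapped the 0.924 (0.917 to 0.932) and 0.957 (0.951 to 0.964) of their class.

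The E-box CACGTG, a palindrome bound by Max dimers, occurred upstream of 7 members (8.24%, beside 6.46% of all promoters), among them Rpl14, Rpl19, Rpl30, Rpl34, Rplp2 and Rps2. In Rpl30 it began 178 bases upstream of the TSS, and in Rplp2 it began at 122 bases, with an ETS match at 88 bases. The summed ratio of these 7 members was 1.13 with Santa Cruz (0.872 to 1.44) and 1.01 with Abcam (0.793 to 1.28). The 78 members without the motif had 0.819 (0.75 to 0.894) and 0.878 (0.812 to 0.948). The intervals overlapped with both antibodies. Rpl19 had a scaled depth of 3.04 in input, 2.42 and 3.73 in the Santa Cruz files and 3.98 and 3.51 in the Abcam files, with ratios of 1.15 (0.504 to 2.31) and 1.35 (0.682 to 2.46). Lower values were also found among members with an E-box. Rps2 had 0.606 with Santa Cruz (0.216 to 1.37) and 0.737 with Abcam (0.326 to 1.46). Rpl34 had 1.29 with Santa Cruz (0.618 to 2.45) and 0.381 with Abcam (0.101 to 1.02).

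The E2F motif GCGGGAA occurred upstream of 10 members (11.8%, beside 4.69% of all promoters), among them Rpl3, Rpl7a, Rpl9, Rpl10l, Rpl39, Rps3a, Rps16, Rps19 and Rps20. Their summed ratios were 0.908 with Santa Cruz (0.711 to 1.15) and 0.923 with Abcam (0.741 to 1.14). Within this group the values ran from Rpl10l to Rps19, which had 0.439 with Santa Cruz (0.139 to 1.06) and 0.427 with Abcam (0.153 to 0.962). The motif CGNGGGCG occurred upstream of 11 members (12.9%, beside 11.7%), with summed ratios of 0.973 (0.775 to 1.21) and 0.962 (0.782 to 1.17). These members were Rpl7a, Rpl14, Rpl27a, Rpl36a, Rps3a, Rps13, Rps15a, Rps20, Rps24, Rps27 and Rps27l. The ETS motif CCGGAAG occurred upstream of 18 members (21.2%, beside 8.29%), with 0.772 (0.64 to 0.925) and 0.995 (0.855 to 1.15). A pyrimidine run of at least 5 bases at the TSS was found in 21.2% of the members and 21% of all promoters. For a run of at least 8 bases the shares were 10.6% and 6.69%. Only runs at or beside the annotated TSS were counted, so that both shares depend on its exact position. No motif set of the members had an interval wholly above 1.

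The surroundings of the promoters were recorded as well. Another protein-coding TSS lay within the window of 15 members, and in 10 of them a head-to-head neighbour began within 1 kb upstream, such as Med22 beside Rpl7a and Ndufa7 beside Rps28. The 70 members without such a neighbour had summed ratios of 0.847 with Santa Cruz (0.772 to 0.927) and 0.899 with Abcam (0.829 to 0.974). Small nucleolar RNA genes (59 in all) lay inside 30 members, whose summed ratios were 0.906 (0.792 to 1.03) and 0.905 (0.801 to 1.02). The 55 members without one had 0.812 (0.729 to 0.901) and 0.88 (0.802 to 0.965).

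In this annotation 163 named pseudogenes belonged to 52 members. Input depth within 2 kb of the TSS was 0.953 per kb (per 1000000 of the file's total depth) over exons and 0.945 over introns of the members, a ratio of 1.01, whereas the ratio was 1.3 over all genes and 1.66 over mitochondrial ribosomal protein genes. Farther than 500 bp downstream of the TSS, the exon/intron ratio was 0.915 for the 82 members with introns and 1.53 for all genes with introns. It was 0.819 for members with a named pseudogene (0.704 per kb over exons and 0.86 over introns) and 1.05 for those without (0.676 and 0.645). Within 2 kb, intron depth was 0.945 for the members, 0.751 for all genes and 0.795 for mitochondrial ribosomal protein genes. Exon depth was 0.953, 0.973 and 1.32 in the same order. Farther than 500 bp downstream, exon depth was 0.692 for members with introns and 0.742 for all genes with introns. Intron depth there was 0.757 and 0.484. The introns of the members lay closer to the TSS, where input depth was higher. Of their 249356 intron bases 115523 lay within 2 kb of it, beside 31022748 of 932103758 for all genes. Any part of this distance in the exon/intron ratios, or of pseudogenes in the ChIP/input ratios, was not tested.

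Other genes of the translation machinery were set beside the members. The 76 genes of mitochondrial ribosomal proteins, which serve the separate ribosome of that organelle, had summed ratios of 0.848 with Santa Cruz (0.777 to 0.924) and 0.928 with Abcam (0.859 to 1). The 45 translation factors had 0.762 (0.677 to 0.855) and 0.918 (0.832 to 1.01). The 20 aminoacyl-tRNA synthetases, which charge transfer RNAs, had 1.04 (0.889 to 1.21) and 0.84 (0.717 to 0.979). The 49 ribosome biogenesis genes had 0.958 (0.865 to 1.06) and 1.02 (0.932 to 1.11). In each of these lists 0 genes were called above or below input with either antibody. Of all promoters, 0.640% were called above input with Santa Cruz, 1.10% with Abcam and 0% below input with either. At such shares, counts of 0 in lists of this size do not set them apart from all promoters. The interval of the members overlapped that of each of these lists with both antibodies.

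**Figure D5:**
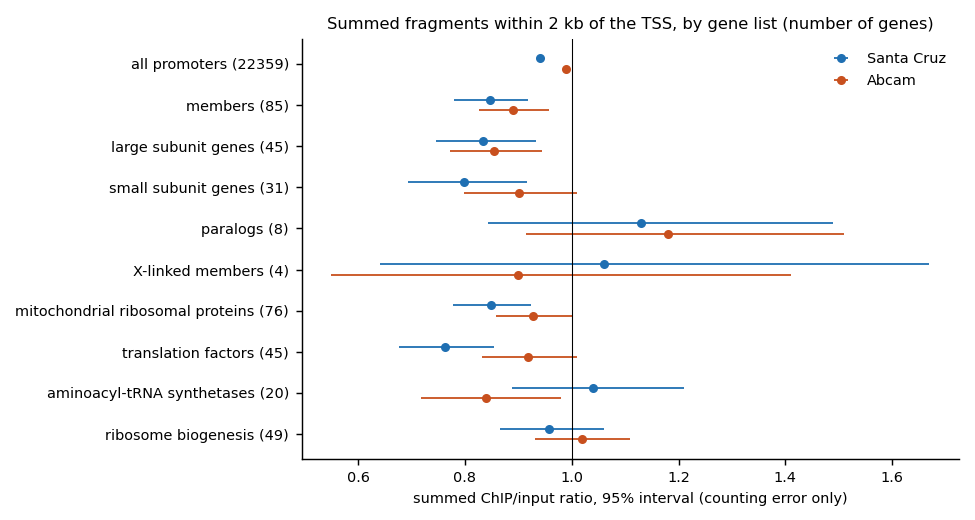
Summed ChIP/input ratio within 2 kb of the TSS with 95% counting intervals, by gene list (number of genes in parentheses), for Santa Cruz and Abcam. The members lie at 0.846 and 0.890, with the mitochondrial ribosomal proteins close by at 0.848 and 0.928, and the paralogs above them at 1.13 and 1.18 with wide intervals.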

How the data were processed

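Pcgf6 ChIP-seq and input coverage from CCE cells was analysed (Santa Cruz 2 files, Abcam 2 files, input 1 file). The authors deposited whole-number coverage signal of reads extended to 300 bp on mm9, 1 library per file, neither scaled nor divided by input, and the submitters' processing notes name Bowtie, version given as 0.1.2.7. Treatment of duplicate and multiply mapping reads is not given in the sources used here. Fragment starts were recovered from the steps in depth (Python 3.11.15, numpy 2.4.6, scipy 1.17.1, tested on simulated data). Fragments shared by replicates, and fragments of any file, input included, with the same start, were counted once. The TSS shared by most coding transcripts of each gene (GENCODE for NCBIM37) was used, with fragment middles counted within 2 kb and scaled by library totals. Tests were exact binomial, one-sided against input and two-sided between antibodies, with Benjamini-Hochberg adjustment over 22359 promoters, and intervals were Clopper-Pearson at 95%. Peaks were 600 bp windows passing a Poisson test at 1e-05 against the higher of the genome-wide rate and the local input over 5 and 10 kb. Scaled depth is the depth in a window per 1000000 of the file's total depth. The exact binomial and Poisson tests compare libraries, not cultures.

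Members named are those past a threshold, the 5 highest and 5 lowest ratios per antibody at 20 or more input fragments, the stalk proteins and Rpsa, X-linked members, paralogs beside their main genes, Rps19bp1 and members with a motif. Pairs that differed at an unadjusted p, and members called only under an alternative, were named after their values were seen. Values of some single members are not reported here, though they enter the counts and sums. The members and lists were chosen with earlier results of these data known. Alternatives were other windows, TSS choices, scalings, filters and replicates left out in turn.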

Additional observations from a re-analysis of the deposited data

How the results depend on the processing

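The summed ratios of the members kept their value within the main interval in every alternative run. The median ratios stayed within the interval of the summed ratio rescaled to the median. This band measures neither the spread between genes nor the error of a median. The counts above input with Santa Cruz and the count that differed between the antibodies stayed at 0 in every alternative tested. Counting all fragments as deposited counts shared fragments, and those of a file with the same start, again. It called 1 member above input with Abcam (Rpl37a, 1.18%, beside 2.78% of all promoters). Below input it called 3 with Santa Cruz (Rpl23a, Rpl26 and Rplp0, 3.53% beside 2.16%) and 1 with Abcam (1.18% beside 1.56%). With 10 kb on each side, 1 member was called below input with Santa Cruz (Rps10, 1.18% beside 0.622% of all promoters) and 2 with Abcam (Rpl29 among them, 2.35% beside 0.756%), and 0 had a ratio of 2 or more with either antibody. With 3 kb, 0 with Santa Cruz and 1 with Abcam had such a ratio. With 1 kb it was 5 with Abcam, and with only the 2 kb upstream 6 with Santa Cruz and 5 with Abcam. It was 1 with each antibody at 20 or more input fragments and 1 with each among ribosomal proteins alone. Leaving out each file in turn gave 1 to 2 members with such a ratio for Santa Cruz (1 without Santa Cruz replicate 1) and 2 to 3 for Abcam. The share of all promoters with such a ratio was 7.05% with Santa Cruz and 6.71% with Abcam in the main setting. It was not computed for these alternatives, so that the changed counts cannot be read as particular to the members. With 1 kb as the centre, the central to flanking ratio of input was 1.5. At a cutoff of 1e-04, 1 member had a Santa Cruz peak and 1 an Abcam peak within 2 kb. The cause of these changes was not tested. Of 2360 values of single members under alternatives, 2321 stayed inside their interval. Many of these could not move. Leaving out a file of an antibody keeps the other antibody's ratios, and 2 of the filters only drop members. The files of an antibody also share most fragments, so that this count is no measure of stability. Scaled depth gave ratios and no test. No paired analysis was possible because the replicates of each antibody hold largely the same fragments and the input has 1 library, so that no replicate spread could be fitted.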
